A study of Mus musculus with 12 samples.

Results

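The neurotrophin ligand genes Bdnf, Ntf3 and Ntf5 and the receptor genes Ntrk2, Ntrk3, Ngfr and Sort1 were followed in mouse trigeminal nerve and in plexiform neurofibroma of that nerve. These 7 genes were chosen by name, not by a rule on their values, from the 47480 gene symbols of the deposited table. Earlier results of these data were known at that time. Other genes of the family are not analysed here. The study held 12 RNA-sequencing libraries, 6 of normal nerve from mice with the genotype Nf1 flox/flox PostnCre- and 6 of plexiform neurofibroma from mice with the genotype Nf1 flox/flox PostnCre+. Floxed Nf1 was thus shared by both groups, and only the tumour group carried the Cre recombinase named for Postn, the gene of periostin, so that genotype and tumour state cannot be told apart. Nf1 encodes neurofibromin, which switches RAS off, and plexiform neurofibroma is a benign tumour of the nerve sheath. The labels give no age, sex or batch and do not say that the libraries came from separate animals, so p-values measure the spread between these samples.

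Neurotrophins are secreted growth factors that keep sensory neurons alive and shape their axons and endings. They act through TRK receptor tyrosine kinases, which signal to RAS and ERK, to PI3 kinase and to phospholipase C gamma, and through the p75 neurotrophin receptor, a member of the tumour necrosis factor receptor family. Unprocessed proneurotrophins bind p75 together with sortilin. In the trigeminal ganglion TrkB and TrkC mark subsets of sensory neurons, many of them mechanoreceptors. Schwann cells and satellite glia are among the cells that carry p75, and they also carry forms of TrkB and TrkC without a kinase domain. Values per gene add these forms together.

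Of the 7 genes, 5 had enough counts to be tested, and Ntrk3 alone passed the test for a difference between the groups, which 18.7% of all tested genes passed. It averaged 393 CPM (counts scaled to library size) in normal nerve and 273 CPM in plexiform neurofibroma, and every tumour library lay below every normal one. Its call was lost when fold changes were corrected for transcript length (adjusted p = 0.0699). Ntrk2, Ngfr, Sort1 and Bdnf had nearly equal group means and did not pass. Ntf3 and Ntf5 were at or near the floor of detection. One normal library, replicate 6, departed from the other normal libraries in Ngfr, Ntrk2, Bdnf and Ntf3.

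Library totals ran from 14160025 to 19989351 counts, and 3 counts, taken as the floor of detection, stood for 0.152 to 0.214 CPM depending on the library. The tissue label was checked against marker genes. Sensory neuron genes were abundant in every library, with a summed level of 14 markers between 11565 and 21081 CPM in normal nerve and between 13395 and 17214 CPM in the tumours. The label names nerve, yet Rbfox3, which encodes a nuclear protein of neurons, was present in every library. It stood between 98.1 and 172 CPM in normal nerve and between 83.5 and 145 CPM in the tumours. The summed level of 11 genes of central nervous system glia and neurons was 2570 CPM in normal nerve replicate 6, against 252 to 563 CPM in the other normal libraries and 196 to 812 CPM in the tumours. In that library Gad2, an enzyme of inhibitory neurons, stood at 106 CPM, with at most 0.512 CPM in any other library. The summed level of 8 skeletal muscle genes was highest in normal nerve replicate 3 (436 CPM) and plexiform neurofibroma replicate 1 (1675 CPM), against medians of 47.7 and 28.1 CPM in the groups. Results were therefore computed with and without replicate 6, and without these 3 libraries.

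The promoters of Ngfr and Ntrk2 are shown because these receptor genes departed in opposite directions in normal nerve replicate 6, and because RefSeq (GRCm38.p6) gave a promoter for 4 of the 7 genes, namely Bdnf, Ntf3, Ngfr and Ntrk2. Each runs from 250 bases before to 50 bases after the annotated start and is read 5′ to 3′ on the strand of the gene. The Ngfr window is chr11:95587649-95587948 on the minus strand and the Ntrk2 window is chr13:58806319-58806618 on the plus strand. Capitals mark matches on either strand to the GC box, GGGCGG.
Ngfr: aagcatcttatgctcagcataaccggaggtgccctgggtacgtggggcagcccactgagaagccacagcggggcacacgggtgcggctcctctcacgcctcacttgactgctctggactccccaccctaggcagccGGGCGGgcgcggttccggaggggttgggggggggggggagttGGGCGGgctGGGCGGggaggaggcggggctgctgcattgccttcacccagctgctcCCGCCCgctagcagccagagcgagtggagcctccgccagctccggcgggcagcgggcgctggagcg
Ntrk2: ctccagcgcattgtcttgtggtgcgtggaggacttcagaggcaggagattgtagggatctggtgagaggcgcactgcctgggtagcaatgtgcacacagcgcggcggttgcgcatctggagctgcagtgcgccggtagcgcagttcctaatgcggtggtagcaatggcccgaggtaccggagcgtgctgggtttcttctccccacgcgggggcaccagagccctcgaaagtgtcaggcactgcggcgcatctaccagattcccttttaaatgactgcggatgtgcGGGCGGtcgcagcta
The Ngfr window held 4 such matches and was 71.7% G or C, while the Ntrk2 window held 1 and was 61.3% G or C. A GC box was found in 35.7% of 32851 mouse promoter windows of the same length. No match was found in either window to the TATA box TATAAA, which 13.6% of the windows held, or to the cAMP response element TGACGTCA, which 1.79% held. Nor did the Bdnf and Ntf3 windows hold either of these. The motifs do not overlap one another in these windows, and a match describes letters only.

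Bdnf (chromosome 2, 109674700 to 109727007, plus strand, GRCm38), which encodes brain-derived neurotrophic factor, the main ligand of TrkB, was the only ligand gene at a level well above the floor. It stood at 24.6, 27.8, 24.3, 35.8, 25.1 and 15.9 CPM in normal nerve replicates 1 to 6, and at 25.5, 21.1, 22.2, 27.6, 30.7 and 24.8 CPM in plexiform neurofibroma replicates 1 to 6. The groups overlapped throughout, and the lowest value belonged to normal nerve replicate 6. Group means were 25.6 CPM ± 6.41 (SD, n = 6) and 25.3 CPM ± 3.52 (SD, n = 6), a log2 fold change, plexiform neurofibroma over normal nerve, of -0.01 with a standard error of 0.16. The difference did not pass edgeR's quasi-likelihood test (Benjamini-Hochberg adjusted p = 0.957), and its 95% interval on the log2 scale ran from -0.36 to 0.33.

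Ntf3 (chromosome 6, 126101412 to 126166910, minus strand) encodes neurotrophin 3, the main ligand of TrkC. Its counts were 3, 4, 2, 4, 4 and 32 in the 6 normal libraries and 9, 5, 7, 3, 3 and 2 in the 6 tumour libraries. The count of 32, or 2.12 CPM, came from normal nerve replicate 6, while the other 5 normal libraries averaged 0.207 CPM. Ntf3 did not pass the filter on low counts. Ntf5 (chromosome 7, 45413695 to 45417179, plus strand), which encodes the second TrkB ligand, neurotrophin 4/5, had a count of 0 in all 6 normal libraries and counts of 4, 1, 4, 0, 0 and 0 in the tumours. A count of 0 allows a level of up to 0.152 to 0.214 CPM in these normal libraries at a floor of 3 counts, by counting error alone. The 4 counts of plexiform neurofibroma replicate 3 came to 0.203 CPM, inside that range, and no fold is given. Summed over libraries, Ntf5 had 0 counts in normal nerve and 9 in the tumours, from replicates 1 to 3 only. Without the filter on low counts the adjusted p of the quasi-likelihood test was 0.459 for Ntf3 and 0.135 for Ntf5. Before adjustment, the p of that test for Ntf5 was 0.0194.

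**Figure D1:**
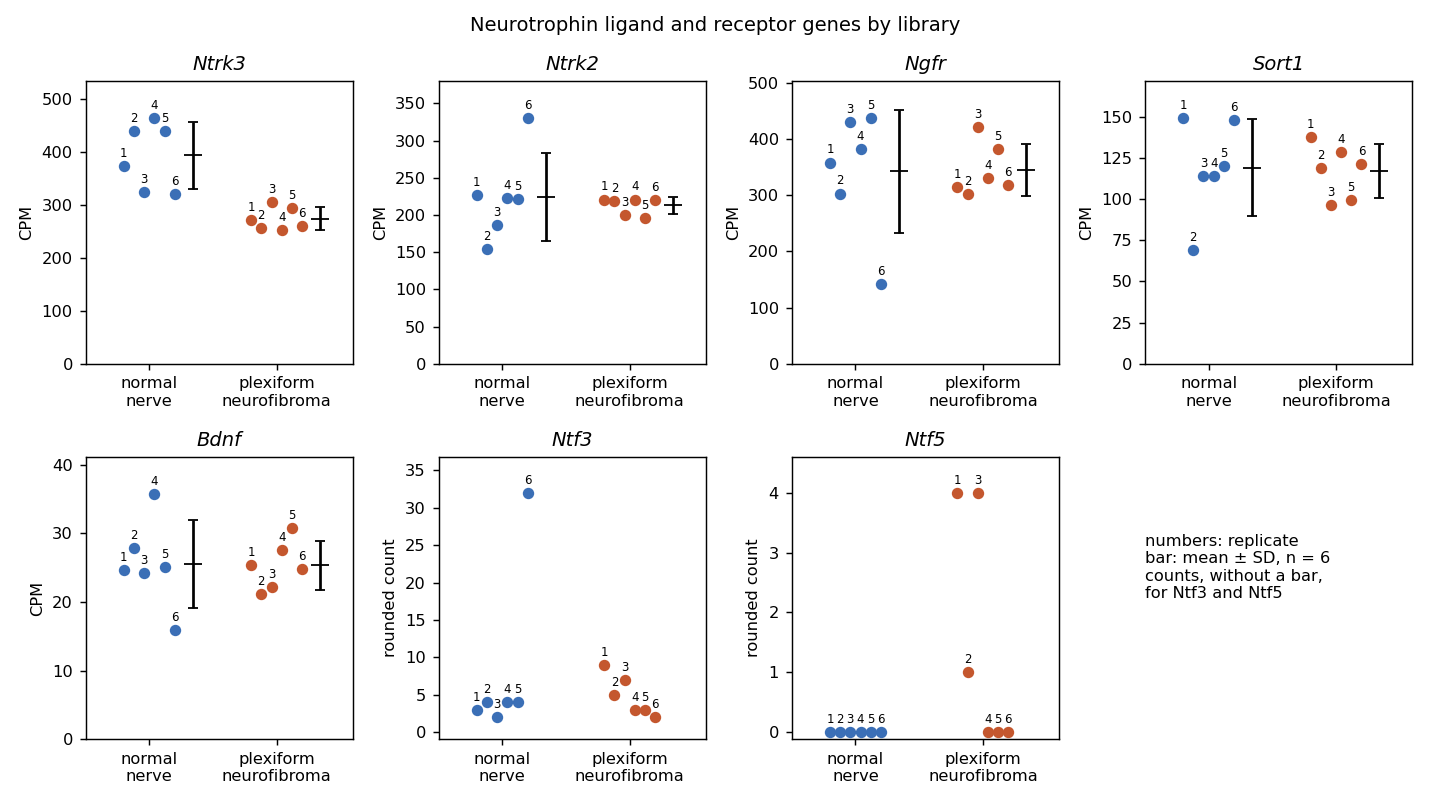
Level of each of the 7 genes in every library, in CPM for the 5 tested genes and as rounded counts for Ntf3 and Ntf5, with the mean ± SD of each group (n = 6) where CPM is plotted. Ntrk3 lies between 253 and 305 CPM in the tumours and between 321 and 464 CPM in normal nerve, and normal nerve replicate 6 is the lowest for Ngfr and the highest for Ntrk2.

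Ntrk3 (chromosome 7, 78175959 to 78738012, minus strand) encodes TrkC, the receptor of neurotrophin 3. In normal nerve replicates 1 to 6 it stood at 372, 439, 324, 464, 439 and 321 CPM, and in the tumours at 271, 257, 305, 253, 295 and 259 CPM. The highest tumour library lay just under the lowest normal one, and the tumours were packed more closely. The normal mean was 393 CPM ± 62.8 (SD, n = 6) against a tumour mean of 273 CPM ± 21.8 (SD, n = 6), so that Ntrk3 fell to 0.695 of its normal level. The log2 fold change was -0.52 with a standard error of 0.10 and a 95% interval from -0.76 to -0.29 (edgeR quasi-likelihood test, adjusted p = 0.00649). Of the 17236 genes tested, 18.7% were called in either direction, 10% higher and 8.63% lower, so 1 call among the 5 neurotrophin genes tested is close to that background. Groups without overlap were found in 7.39% of tested genes, and with the tumours lower in 2.99%.

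Ntrk3 remained called without any 1 library, with log2 fold changes between -0.58 and -0.47 and adjusted p between 0.00136 and 0.0201. Its longest annotated transcript is 19703 bases, and the fold changes of all tested genes varied with transcript length. The median log2 fold change was 0.09 for tested genes with a longest transcript under 2000 bases and -0.22 for the 391 with 10000 bases or more, of which 27.1% were called lower. When fold changes were corrected for transcript length within each library, the log2 fold change of Ntrk3 was -0.26 and the call was lost (adjusted p = 0.0699). An antisense gene, Gm9885, overlaps Ntrk3 and had 531 counts over all libraries against 68663 for Ntrk3, and the sources do not say whether strand was used in counting.

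TrkC in this tissue is known from sensory neurons, though glia carry forms of it too. Ntrk3 was set against the mean log2 level of the 14 sensory neuron markers in the same library. Of those markers 1 was called lower, Snap25 (a protein of synaptic vesicle fusion, log2 fold change -0.47, adjusted p = 0.00986), and 0 higher, with a median log2 fold change of -0.23 against -0.02 over all tested genes. The log2 ratio of Ntrk3 to the sensory neuron score had a median of -1.03 in normal nerve (lowest -1.23, highest -0.61) and of -1.34 in the tumours (lowest -1.47, highest -1.30). All 6 tumours lay below all 6 normal libraries, with a difference of -0.37 (two-sided exact permutation test over all splits of 6 against 6, p = 0.00216, the smallest the design can give, adjusted p = 0.013 over the 6 ratios tested). With the sensory neuron score as a covariate, the log2 fold change of Ntrk3 was -0.44 (edgeR adjusted p = 0.00237). Neither the ratio nor this fit was corrected for transcript length. Of the 14 markers, 12 had a negative log2 fold change and 2 a positive one, Tac1 (0.31) and Calca (0.28). The part of glia and of neuron types in the Ntrk3 values was not tested. In bulk libraries, fewer cells of a type and less RNA per cell cannot be told apart.

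Ntrk2 (chromosome 13, 58806569 to 59133970, plus strand) encodes TrkB, the receptor of Bdnf and neurotrophin 4/5. Normal libraries 1 to 6 held 226, 155, 186, 223, 221 and 330 CPM, and tumour libraries 221, 219, 200, 221, 196 and 220 CPM. The tumours lay inside the normal range, whose upper end was set by normal nerve replicate 6. Means were 224 CPM ± 59.3 (SD, n = 6) and 213 CPM ± 11.3 (SD, n = 6), with a log2 fold change of -0.07, a standard error of 0.14 and a 95% interval from -0.39 to 0.24 (edgeR adjusted p = 0.75). Without replicate 6 the normal mean was 202 CPM ± 31.2 (SD, n = 5), and the log2 fold change was 0.07.

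Ngfr (chromosome 11, 95568818 to 95587735, minus strand) encodes the p75 neurotrophin receptor. It stood at 358, 303, 431, 383, 438 and 142 CPM in normal nerve and at 316, 302, 421, 331, 382 and 318 CPM in the tumours. Apart from replicate 6, which held 0.370 of the mean of the other normal libraries, the groups covered nearly the same range. Ngfr averaged 343 CPM ± 110 (SD, n = 6) and 345 CPM ± 46.5 (SD, n = 6), a log2 fold change of 0.01 with a standard error of 0.22 (edgeR adjusted p = 0.98, 95% interval -0.47 to 0.49). Without replicate 6 the normal mean was 383 CPM ± 55.4 (SD, n = 5), and the log2 fold change was -0.15.

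Ngfr was also compared with Schwann cell lineage genes, since Schwann cells are one of its known sources. Of 12 such markers 6 (50%) were called higher in the tumours and 0 lower, against 18.7% of all tested genes called. Their median log2 fold change was 0.74, with a summed level of 3874 to 7455 CPM in normal nerve and 7547 to 12511 CPM in the tumours. The log2 ratio of Ngfr to the Schwann cell score had a median of 1.18 in normal nerve (lowest 0.09, highest 1.39) and of 0.27 in the tumours (lowest -0.03, highest 0.85). The groups overlapped, and the difference of -0.64 did not pass (two-sided exact permutation test, adjusted p = 0.0649). With replicate 6 of normal nerve removed it was -0.82 (exact permutation test, adjusted p = 0.0173), and leaving out the 3 libraries with central nervous system or muscle genes gave -0.77 (adjusted p = 0.0476). The part of the Schwann cell genes in these values was not tested.

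Sort1 (chromosome 3, 108284082 to 108361511, plus strand) encodes sortilin, a sorting receptor that binds proneurotrophins beside p75. It stood at 149, 69.1, 114, 114, 120 and 148 CPM in normal nerve and at 138, 119, 96.2, 129, 99.3 and 121 CPM in the tumours. The groups overlapped, and normal nerve replicate 2 was the lowest of all. Means were 119 CPM ± 29.3 (SD, n = 6) and 117 CPM ± 16.4 (SD, n = 6), a log2 fold change of -0.02 with a standard error of 0.16 (edgeR adjusted p = 0.928, 95% interval -0.39 to 0.34). Gm12523, antisense to Sort1, and Gm43099, on the same strand, had 101 and 228 counts over all libraries against 24401 for Sort1.

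**Figure D2:**
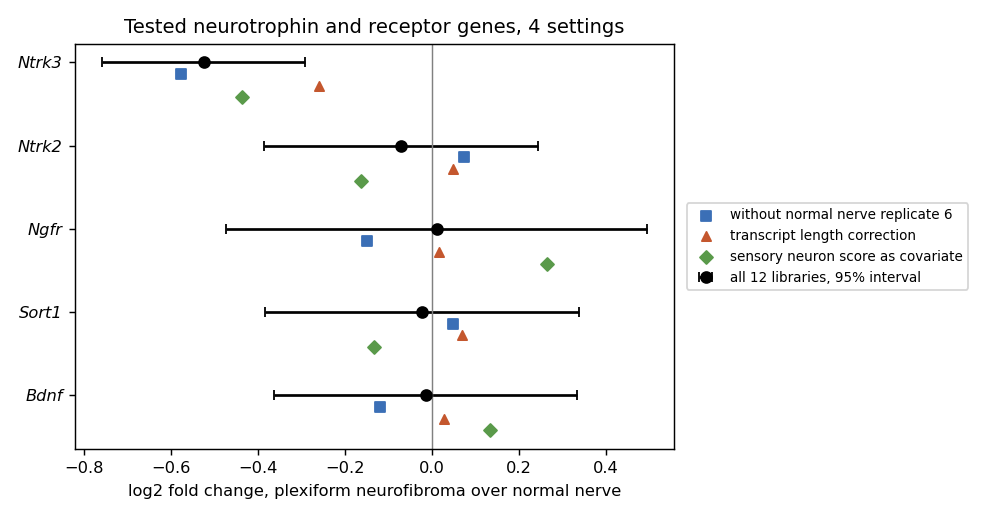
Log2 fold change of the 5 tested genes, plexiform neurofibroma over normal nerve, with its 95% interval from all 12 libraries (black) and the value under 3 other settings (coloured). The Ntrk3 interval ends at -0.29, below 0, and its length-corrected value is -0.26, while the intervals of Ntrk2, Ngfr, Sort1 and Bdnf span 0.

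Levels of different genes were compared per kilobase of the longest annotated transcript. On that scale Ngfr was the highest, at 99.4 ± 32.0 CPM per kilobase in normal nerve and 100.1 ± 13.5 in the tumours (SD, n = 6 each), above each other gene in 12 of 12 libraries. Ntrk2 followed at 25.6 ± 6.78 and 24.3 ± 1.29 CPM per kilobase, Ntrk3 at 19.95 ± 3.19 and 13.9 ± 1.11, and Sort1 at 17.4 ± 4.29 and 17.1 ± 2.396. Ntrk2 lay above Ntrk3 in 11 of 12 libraries, while Ntrk3 and Sort1 changed places, with Ntrk3 higher in 5 of 12. Bdnf came next at 6.00 ± 1.502 and 5.94 ± 0.826 CPM per kilobase, below Sort1 in 12 of 12 libraries.

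The order of the TRK receptors depended on the length used. Per kilobase of the longest coding sequence, Ntrk3 stood at 152 ± 24.2 CPM in normal nerve and 105 ± 8.42 in the tumours, above Ntrk2 at 90.8 ± 24.1 and 86.4 ± 4.57 (SD, n = 6 each). Ntrk2 was then the higher in 1 of 12 libraries, normal nerve replicate 6. Ngfr remained above Ntrk2 and above Ntrk3 in 11 of 12 libraries on this scale, the exception again being replicate 6. As a share of the 4 receptor genes summed per kilobase of transcript, Ntrk3 made up 12.5% ± 2.45 in normal nerve and 8.92% ± 0.291 in the tumours (SD, n = 6 each). Ngfr made up 59.7% ± 12.4 and 64.2% ± 3.87, with 35.2% in normal nerve replicate 6. Summed per kilobase of coding sequence instead, the share of Ntrk3 was 27.5% ± 4.33 and 20.8% ± 0.609, and that of Ngfr 46.99% ± 10.97 and 52.97% ± 3.43.

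The balance of receptors within a library was tested as 4 log2 ratios of CPM. The ratio of Ngfr to Ntrk3 had a median of -0.17 in normal nerve (lowest -1.18, highest 0.41) and of 0.33 in the tumours (lowest 0.22, highest 0.46). The groups overlapped through normal nerve replicate 3, the highest normal library. The difference was 0.60 (two-sided exact permutation test, p = 0.013, adjusted p = 0.039 over the 6 ratios), and it did not pass when any 1 tumour library was left out (adjusted p between 0.0693 and 0.0909). This ratio and that of Ntrk3 to the sensory neuron score rest on the same Ntrk3 values as the test of the gene itself.

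The ratio of Ntrk2 to Ntrk3 had medians of -0.89 and -0.27 in normal nerve and in the tumours, a difference in means of 0.48 that did not pass (exact permutation test, adjusted p = 0.0909). Normal nerve replicate 6, at 0.04, was the highest of the 12 libraries. Without it the difference was 0.65 (exact permutation test, adjusted p = 0.00649). The ratios of Ngfr to Ntrk2 and of Ngfr to Sort1 differed by 0.12 and 0.08 (exact permutation test, adjusted p = 0.933 for each), and without replicate 6 the differences were -0.23 for both.

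**Figure D3:**
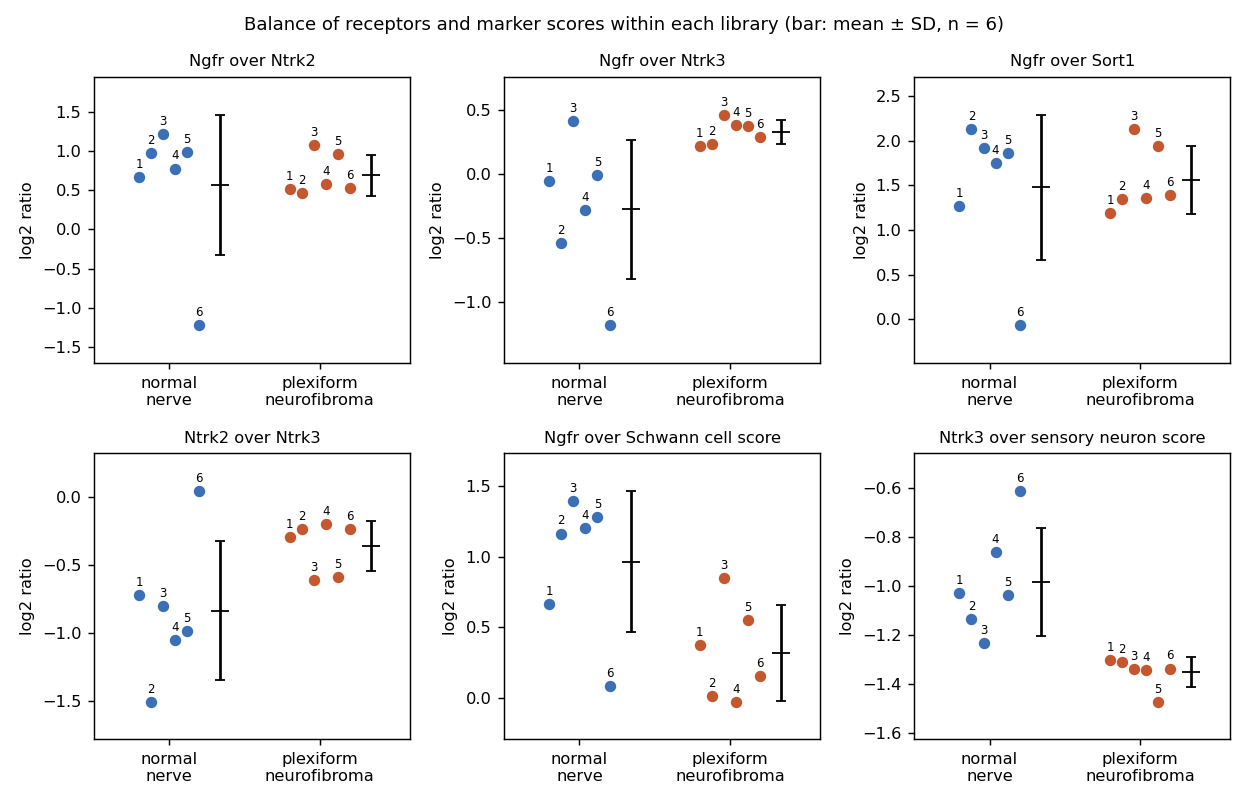
The 6 log2 ratios within each library, with the mean ± SD of each group (n = 6). The tumours lie wholly below normal nerve for Ntrk3 over the sensory neuron score (-1.30 and lower against -1.23 and higher), and normal nerve replicate 6 is the lowest library for Ngfr over Ntrk2 at -1.22.

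The 6 lists of partners and pathway genes below come from tumours in which markers of some cell types were also higher. Beside the Schwann cell markers, 5 of 9 fibroblast markers were called higher and 0 lower, with a median log2 fold change of 1.20 and a summed level of 147 to 1068 CPM in normal nerve and 1185 to 2765 CPM in the tumours. Of 8 macrophage markers 2 (25%) were called higher and 0 lower, with a median log2 fold change of 0.996 and a summed level of 48.2 to 215 CPM and 143 to 309 CPM. Over all tested genes 18.7% were called, not far from the macrophage share, and 10% were called higher. Endothelial and mural markers had 1 of 9 called higher and 1 lower (median log2 fold change -0.33). The 5 mast cell and 4 satellite glia markers had 0 called, and 1 of 3 tested perineurial markers was called higher. No marker of the fibroblast or macrophage list was at 0 in every library. The part of these cell types in the values of the pathway genes was not tested.

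Among the pathway genes called between the groups, the one with the largest fold was Sorcs2, a relative of sortilin with the same VPS10 domain that binds p75 and proneurotrophins. It ran from 10.7 to 28.2 CPM with a median of 17.1 in normal nerve, and from 34.9 to 57.7 CPM with a median of 43.5 in the tumours. The groups did not overlap, and Sorcs2 rose 2.57-fold (log2 fold change 1.36, standard error 0.21, edgeR adjusted p = 0.00272). Sorl1, a sorting receptor of the same family that carries TrkB, fell to 0.769 of its normal level, from 264 CPM ± 32.3 to 203 CPM ± 28.1 (SD, n = 6 each, adjusted p = 0.0258). Sorcs1 and Sorcs3 did not pass, at 1.41-fold (adjusted p = 0.107) and 0.697-fold (adjusted p = 0.0665). Thus 1 of the 4 other VPS10 receptors was called higher and 1 lower.

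The TRK adaptors and effectors numbered 21, all tested, of which 2 were called higher and 3 lower, with a median log2 fold change of -0.04. Kidins220, a scaffold that holds TRK receptors in the membrane, ran from 294 to 391 CPM in normal nerve and from 254 to 285 CPM in the tumours. The groups did not overlap, and Kidins220 fell to 0.802 of its normal level (edgeR adjusted p = 0.0121). Frs2, a docking adaptor of the activated receptor, fell to 0.753 (adjusted p = 0.0264), and Rapgef1, an exchange factor for RAP1, fell to 0.878 (adjusted p = 0.0379). Sh2b3 and Gab1, an adaptor and a docking protein of receptor kinases, each rose 1.40-fold (adjusted p = 0.0245 and 0.0499). The Gab1 call held in 9 of 23 other settings and in 3 of the 12 fits without 1 library. The other 16 did not pass. Their folds ran from 0.696 for Dok5 (adjusted p = 0.0929) to 1.56 for Shc4 (adjusted p = 0.106). Shc2, an adaptor of neurons, stood at 0.738 (adjusted p = 0.0511) and was called without normal nerve replicate 6, at 0.688 (adjusted p = 0.00327).

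Of 18 partners and effectors of p75, 2 were called higher and 1 lower, with a median log2 fold change of 0.03. Adam17, the protease that sheds the outer part of p75 among many other membrane proteins, ran from 17.2 to 33.2 CPM in normal nerve and from 37.2 to 55.2 CPM in the tumours. Without overlap of the groups it rose 1.70-fold (edgeR adjusted p = 0.00584). Ripk2, a kinase that binds the death domain of p75, rose 1.32-fold (adjusted p = 0.0395). Lingo1, which joins p75 and the Nogo receptor in 1 complex, fell to 0.744, from 65.6 CPM ± 8.45 to 48.7 CPM ± 5.95 (SD, n = 6 each, adjusted p = 0.0131).

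Genes that sort and cleave proneurotrophins numbered 15, of which 12 were tested, 1 was called higher and 2 were called lower. Plat encodes tissue plasminogen activator, which turns plasminogen into plasmin, and plasmin can cleave the Bdnf precursor. Plat rose 1.63-fold, with means of 28.3 CPM ± 7.02 against 46.3 CPM ± 8.84 (SD, n = 6 per group, adjusted p = 0.0128). Serpini1, the neuronal inhibitor of tissue plasminogen activator, fell to 0.759 (adjusted p = 0.0253), and Pcsk2, a prohormone convertase, fell to 0.791 (adjusted p = 0.0335). Furin, an intracellular convertase, stood at 0.877 and did not pass (adjusted p = 0.217), but was called lower without normal nerve replicate 6, at 0.834 (adjusted p = 0.0353). The largest difference in the list was that of Hap1, at 0.287-fold, which did not pass (adjusted p = 0.133) and stood at 132 CPM in that library. Plg, the gene of plasminogen itself, was below the filter at no more than 0.203 CPM in any library.

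**Figure D4:**
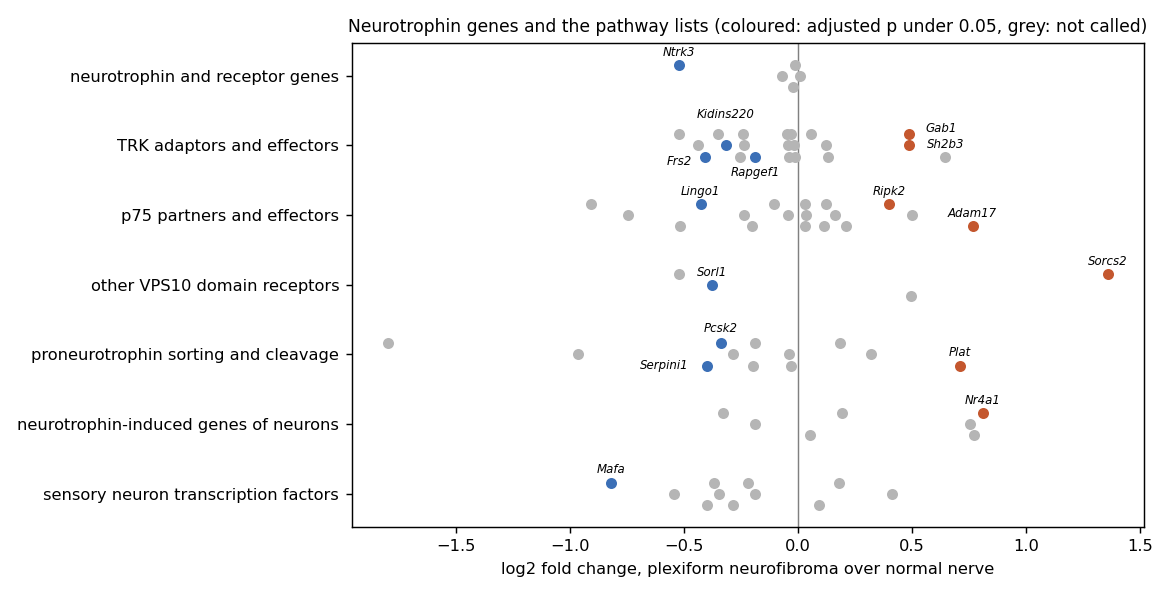
Log2 fold change of the 5 tested neurotrophin and receptor genes and of each tested gene of the 6 pathway lists, with called genes in colour and the named ones labelled. Sorcs2 is the highest at 1.36, and called genes lie on both sides of 0 in the first 4 lists below the top line.

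Genes known to be induced in neurons by neurotrophins numbered 8, with 7 tested, 1 called higher and 0 lower. Nr4a1, an early response nuclear receptor, rose 1.75-fold, with means of 29.3 CPM ± 5.63 against 51.3 CPM ± 8.31 (SD, n = 6 per group, adjusted p = 0.00325), without overlap of the groups. Vgf, which encodes a secreted neuropeptide precursor, stood at 0.797 and did not pass (adjusted p = 0.103). Without normal nerve replicate 6, in which Fos and Egr1 were the highest of all libraries at 27.0 and 51.4 CPM, these early response genes were called higher too, at 3.38-fold and 2.73-fold (adjusted p = 0.00455 and 0.00349).

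Transcription factors of sensory neurons numbered 11, of which 0 were called higher and 1 lower, with a median log2 fold change of -0.29. Mafa, a factor of mouse touch receptors, fell to 0.566 from 13.8 CPM ± 5.47 to 7.78 CPM ± 1.28 (SD, n = 6 each, adjusted p = 0.0456). That call held in 10 of 23 other settings and in 2 of the 12 fits without 1 library, and with the sensory neuron score as a covariate the log2 fold change was -0.51 (adjusted p = 0.129). Runx3, the factor of mouse TrkC-positive proprioceptive neurons, stood at 7.02 CPM ± 1.08 and 7.48 CPM ± 0.781 (SD, n = 6 each, adjusted p = 0.638). Etv1, another factor of proprioceptive neurons, stood at 1.13-fold (adjusted p = 0.218). Normal nerve replicate 6 had the lowest value of any library for Mafa, Tlx3, Runx1, Pou4f1 and Isl1, and also for Runx3, Klf7 and Maf. Without that library 5 factors were called lower, namely Mafa, Tlx3, Runx1, Pou4f1 and Isl1. Their folds lay between 0.504 and 0.820 and their edgeR adjusted p between 0.00139 and 0.0441. In that fit 28.8% of all 17470 tested genes were called, 14.6% higher and 14.2% lower, so calls gained there are to be read against a higher background. Of the 73 pathway genes tested, 23 (31.5%) were called there, 9 of them not called with all 12 libraries. The 9 were Fos and Egr1, which were higher, and Tlx3, Runx1, Pou4f1, Isl1, Shc2, Furin and Prdm4, an effector of p75 at 0.835 (adjusted p = 0.00869), which were lower. Apart from Mafa, genes named for this fit were picked after their values were seen.

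Of the 15 pathway genes named by rule, Kidins220, Lingo1, Adam17, Sorcs2, Plat and Nr4a1 kept their call in all 23 other settings. The call was lost in 14 settings for Gab1, 13 for Mafa, 11 for Rapgef1, 10 for Pcsk2, 8 each for Ripk2 and Sorl1, 6 for Frs2, 5 for Serpini1 and 3 for Sh2b3. Under the transcript length correction the calls of Frs2, Rapgef1, Ripk2, Sorl1 and Pcsk2 were lost (adjusted p between 0.0533 and 0.195). Kidins220 kept its call there narrowly, at a log2 fold change of -0.21 (edgeR adjusted p = 0.0446) against -0.32 without the correction. The shares called ran from 9.09% of the sensory neuron factors to 25% of the sorting and cleavage genes, with 2 of the 4 VPS10 receptors, against 18.7% of all tested genes. No list was tested as a set.

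The genes whose level followed each neurotrophin gene most closely within the groups were found among 11646 genes with a mean of at least 5 CPM, by the Pearson correlation over 12 libraries after the mean of each group was taken out. These values describe libraries that share dissection, depth and cell make-up, and carry no test. Ntrk3 was followed most closely by Kif21a (r = 0.945), Atp2b1 (0.942) and Tmem230 (0.918), the first a kinesin motor and the second a calcium pump of the plasma membrane. Ngfr was followed by Eaf1 (r = 0.975), Fam168b (0.972) and Dagla (0.966), and without normal nerve replicate 6 these were 0.847, 0.867 and 0.876.

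Ntrk2 was followed by Ift22 (r = 0.945), Golga7 (0.939) and Sdc2 (0.939), of which Sdc2, a heparan sulfate proteoglycan, stood at 91.7 CPM in normal nerve replicate 6 against a mean of 27.8 CPM in the other normal libraries. For Bdnf the closest was Mrgprx1 (r = 0.946), a receptor gene of itch and pain neurons, followed by Prokr1 (0.94) and Rit1 (0.921). For Sort1 the closest were Sash1 (r = 0.975), Ank (0.969) and Naa50 (0.967), which hardly moved without replicate 6, at 0.975, 0.974 and 0.962. None of these 15 genes but Fam168b was called between the groups (edgeR adjusted p = 0.0367 for Fam168b, log2 fold change -0.21).

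**Figure D5:**
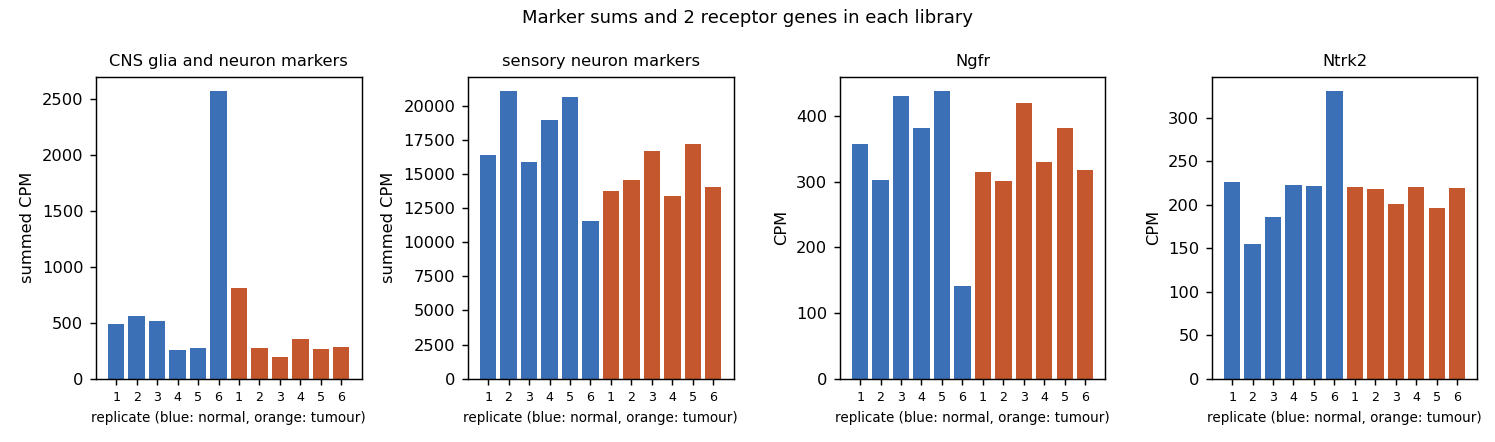
Summed CPM of central nervous system and sensory neuron markers and CPM of Ngfr and Ntrk2 in each library, as bars in replicate order. Normal nerve replicate 6 has the highest central nervous system sum (2570 CPM), the lowest sensory neuron sum (11565 CPM), the lowest Ngfr (142 CPM) and the highest Ntrk2 (330 CPM).

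Normal nerve replicate 6 thus lay off the mean of the other normal libraries in different directions for different genes. Relative to the mean of the other 5 normal libraries it held 0.370 of their Ngfr, 0.579 of their Bdnf and 0.787 of their Ntrk3, but 1.63 times their Ntrk2, 1.31 times their Sort1 and 10.3 times their Ntf3. It did not stand apart for Sort1, at 148 CPM against 149 CPM in replicate 1, or for Ntrk3, at 321 CPM against 324 CPM in replicate 3. TrkB, TrkC, Bdnf and neurotrophin 3 are all made in the brain as well, whether their genes were higher or lower in replicate 6. The part of the central nervous system genes of that library in these levels was not tested, and the Ntrk3 difference was as large without it (log2 fold change -0.58, edgeR adjusted p = 0.00136).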

How the data were processed

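RNA of trigeminal nerve was sequenced in 6 libraries of normal nerve and 6 of plexiform neurofibroma. Per the labels' protocols, RNA was taken with a column kit and a KAPA stranded kit made the polyA libraries, and that text also mentions a TruSeq kit. Per the submitters' processing notes, the tools were FastQC, STAR 2.4.2a, Salmon 0.60 and DESeq2 and the build was mm10; their roles are not stated there. For the annotation and for strand in counting, the answer is not given in the sources used here. Estimated counts per symbol, not normalized, were deposited by the authors, with 84.1% to 86.5% of the values of a library whole within 0.001. Estimated counts can share reads between similar genes or transcripts. Columns were matched to samples by title.

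Expected counts were rounded. The filterByExpr step left 17236 genes for edgeR 4.0.16 under R 4.3.3 (quasi-likelihood F test, TMM factors, robust fit, no covariate). Benjamini-Hochberg adjustment was made over all genes tested, with a call at an adjusted p under 0.05, and adjusted p-values of genes are from it unless another tool is named. CPM used TMM-scaled library sizes. The 95% intervals used 10 degrees of freedom. Log2 ratios within a library (prior count 2) and marker scores (mean log2 CPM) were compared by two-sided exact permutation tests over all splits of 6 against 6. Floors and counts cover counting error only. No library pair agreed within counting noise (lowest chi-square per degree of freedom 12.6). Gene positions and lengths came from GENCODE vM21 on GRCm38.

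Genes named were the 7 neurotrophin genes, up to 3 called genes per direction of each pathway list in order of p, and the 3 genes most like each neurotrophin gene with a mean of at least 5 CPM. A few more list genes are named for their roles, chosen after their values were seen. The genes, the lists and the tests were chosen with earlier results of these data known. Alternatives were factors by RLE or upper quartile, dropping the low-count filter or requiring more than 1 CPM in 6 samples, limma-voom (limma 3.58.1), DESeq2 1.42.0, sensory neuron, central nervous system and muscle scores as covariates, a transcript length correction (lowess, span 0.3), a prior count of 0.5, list medians and each library left out. A fit without the 3 libraries with a central nervous system or muscle score above 5 was added, chosen after seeing the data. Simulated data with known changes were used to check the edgeR step.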

Additional observations from a re-analysis of the deposited data

Results flagged for a closer look

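Each group of 6 libraries was searched for a single library whose gap to its nearest neighbour exceeded the 95% critical value of Dixon's test as a share of the range of the group, over 25 sets of values, and chance alone gives about 1 such library in 20 groups. It was found in 3 sets. The Ntf3 level of normal nerve replicate 6 was 2.12 CPM, with 0.285 CPM in the next library, a gap of 0.915 of the range. The log2 ratio of Ngfr to Ntrk2 in that same library was -1.22, with 0.66 in the next, a gap of 0.775 of the range. The log2 ratio of Ntrk3 to the sensory neuron score in plexiform neurofibroma replicate 5 was -1.47, with -1.34 in the next, a gap of 0.762 of the range.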

How the results depend on the processing

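No paired analysis was made, because the groups came from mice of different genotypes and the labels link no tumour library to a normal one. The labels give no replicate numbers, and the numbers used here follow the order of deposit. The difference in the ratio of Ntrk3 to the sensory neuron score kept its direction and its call in all 16 alternatives, from -0.52 to -0.29. The transcript length correction, under which the Ntrk3 call was lost, was not among these 16 and was not applied to any ratio. Genes called lower numbered 902 without a filter, and limma-voom called 2878 higher and 2707 lower. Leaving out 1 library gave 1092 to 2544 genes higher and 801 to 2487 lower. Neurotrophin genes called lower numbered 0 after the length correction, where Ntrk3 was lost, and 1 in every other setting; 0 were called higher in any. The differences of Bdnf, Ntrk2, Ngfr and Sort1 changed sign with the setting, and none of these genes passed in any. With limma-voom the log2 fold changes were 0.0232 for Ntrk2, -0.158 for Ngfr and 0.0224 for Sort1. With the sensory neuron covariate Bdnf had 0.134. With the length correction Bdnf had 0.0266, Ntrk2 0.0474 and Sort1 0.0685. Without the 3 libraries with central nervous system or muscle genes Ntrk2 had 0.0345, Ngfr -0.0787 and Sort1 2.5e-05. Leaving out 1 library gave -0.119 to 0.105 for Bdnf, -0.148 to 0.0729 for Ntrk2, -0.150 to 0.0925 for Ngfr and -0.132 to 0.0504 for Sort1. Without those 3 libraries the ratio differences were -0.13 for Ngfr to Ntrk2, -0.12 for Ngfr to Sort1, 0.69 for Ntrk2 to Ntrk3 (exact permutation adjusted p = 0.0159) and -0.77 for Ngfr to the Schwann cell score. Leaving out 1 library gave -0.23 to 0.25 for Ngfr to Ntrk2, 0.42 to 0.74 for Ngfr to Ntrk3, -0.23 to 0.21 for Ngfr to Sort1, 0.34 to 0.65 for Ntrk2 to Ntrk3 and -0.82 to -0.56 for Ngfr to the Schwann cell score. The cause of these changes was not tested. With 6 libraries a group, intervals of the genes not called remain wide, and Ntf3 and Ntf5 lie at the floor.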
